A study of Mus musculus with 4 samples.

Results

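The proteasome subunit genes of the mouse kidney were examined in a comparison of mice with and without the peptide hormone ELA in their renal tubules. The members were the protein-coding genes whose symbol begins with Psma, Psmb, Psmc, Psmd, Psme, Psmf or Psmg followed by a digit, without pseudogenes and without the immunoproteasome subunits Psmb8, Psmb9 and Psmb10. There were 47 of them among the 54078 features of the table. Of these, 14 encode the core particle, 17 the regulatory particle, 7 assembly chaperones, and 6 alternative activators or an inhibitor. Psma8 and Psmb11 are core subunits restricted to testis and thymus, and Psmc3ip matches by name only, since its product acts in meiotic recombination. RNA-sequencing was done on 4 libraries of kidney RNA from adult mice at day 3 after bilateral renal ischemia/reperfusion (I/R), in which both renal pedicles were clamped for 30 min. There were 2 WT libraries, from Apela flox/flox littermates without Cre, and 2 libraries from Apela Ksp KO mice, in which Cre under the Ksp-cadherin promoter deletes the floxed Apela gene, which encodes ELA, in renal tubular epithelial cells. Each library is labelled as a pool of 3 male mice, so n = 2 counts pools and the spread is that between pools. The labels give the strain as C57BL/6 x 129S4/SvJae, while the study's methods give C57BL/6. Both groups were injured, and no uninjured library was part of the comparison, so the values describe injured kidneys of 2 genotypes and not the response to injury.

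The proteasome degrades proteins that carry ubiquitin chains. Its core particle is a barrel of alpha rings, which gate the entry, and beta rings, which hold the proteolytic sites. The regulatory particle caps the barrel. Its ATPases unfold the substrate and feed it into the core, and its non-ATPase subunits bind ubiquitin, remove it and hold the cap together. Other activators, among them the PA28 and PA200 complexes, can bind the core in place of the regulatory particle, and in cells exposed to interferon gamma the catalytic beta subunits can be replaced by the immunoproteasome subunits. Renal tubular cells reabsorb and turn over large amounts of protein, and genes of the constitutive proteasome are expressed in practically every cell.

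The values are FPKM, fragments scaled by the length of the gene and by the total of the library. Reads on genes numbered 16045724 to 16927742 in a library. Apela was 5.27 and 4.57 FPKM in the WT pools and 0.536 and 0.245 FPKM in the KO pools, lower in KO as labelled. The design text of the series gives adipose tissue as where the RNA came from while the labels name the kidney, and the kidney markers Slc34a1 of the proximal tubule, Umod of the thick limb and Aqp2 of the collecting duct were at least 365, 788 and 159 FPKM in every pool. WT replicate 2 stood apart in several cell markers. The summed FPKM of 12 macrophage genes was 496 there and between 210.1 and 265.7 in the other pools. WT replicate 2 was the highest pool in 10 of these 12 genes. It was also the highest pool in 7 of 8 fibroblast genes and the lowest in 6 of 8 collecting duct genes. For 14 proximal tubule genes the sum was 6941 there and between 9609 and 13360 in the others, which rested on Kap and Pck1, and it was the lowest pool in 6 of the 14. Between the groups the proximal tubule genes went both ways, with a median log2 fold change of −0.24. Of the 14, 6 were lower and 2 higher in both KO pools, where 18.1% and 19.7% of all 15414 genes tested were. WT replicate 2 also differed in scale, since its library total behind the FPKM was 1.07 times its reads on genes. In the other 3 pools this was between 0.968 and 0.988 times.

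Most genes of the core and regulatory particle were slightly higher in the KO pools, with Psmc6 and Psmd6 as the exceptions, and Psme1 and Psme2 were lower, but no member passed the test. Of the 47 members, 44 had a mean FPKM of at least 0.5 and were tested with limma on log2(FPKM + 0.5), on which scale every fold change is given as KO minus WT. None of the 44 had a Benjamini-Hochberg adjusted p under 0.05 over the 15414 genes tested, where the share of all genes was 0.0%. Apela, the deleted gene, did not pass either, with a log2 fold change of −2.62 ± 0.22 (SE) and an adjusted p of 0.466 (limma). The paper reports a set of differentially expressed genes between these groups at the same threshold, with a test that its methods do not name. The adjusted p of the members lay between 0.785 and 1.0, and between 0.446 and 1.0 over all alternative settings. At an unadjusted p under 0.05, 2 members were higher in KO, Psmd11 and Psmd4, where 3.29% of all genes tested were, and 1 was lower, Psme2, where 3.03% were. Together these were 3 of 44 (6.82%), against 6.32% of all genes. Such a p was not stable for any of the 3 when a pool was left out. The log2 fold changes then ran from 0.32 to 0.55 for Psmd11, 0.26 to 0.38 for Psmd4 and −0.58 to −0.32 for Psme2. With all pools kept, Psmd4 had no such p with quantile normalization, total reads scaling, no trend or the replicate block. Of the 44 members, 36 had a fold change above 0 (81.8%), against 51.4% of all genes. Both KO pools lay above both WT pools in 21 members (47.7%), against 19.7% of all genes, and below them in 4 (9.09%), against 18.1%. The median log2 fold change of the members was 0.12, against 0.01 for all genes. With 2 pools in each group, the smallest two-sided p of an exact permutation test is 0.333, so for a single gene such an order of the pools carries no significance. The members were all measured in the same pools, so they are not separate observations, and their counts carry no test. Kidney tissue mixes cell types, and in bulk RNA fewer cells of a type cannot be told apart from less RNA per cell.

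**Figure D1:**
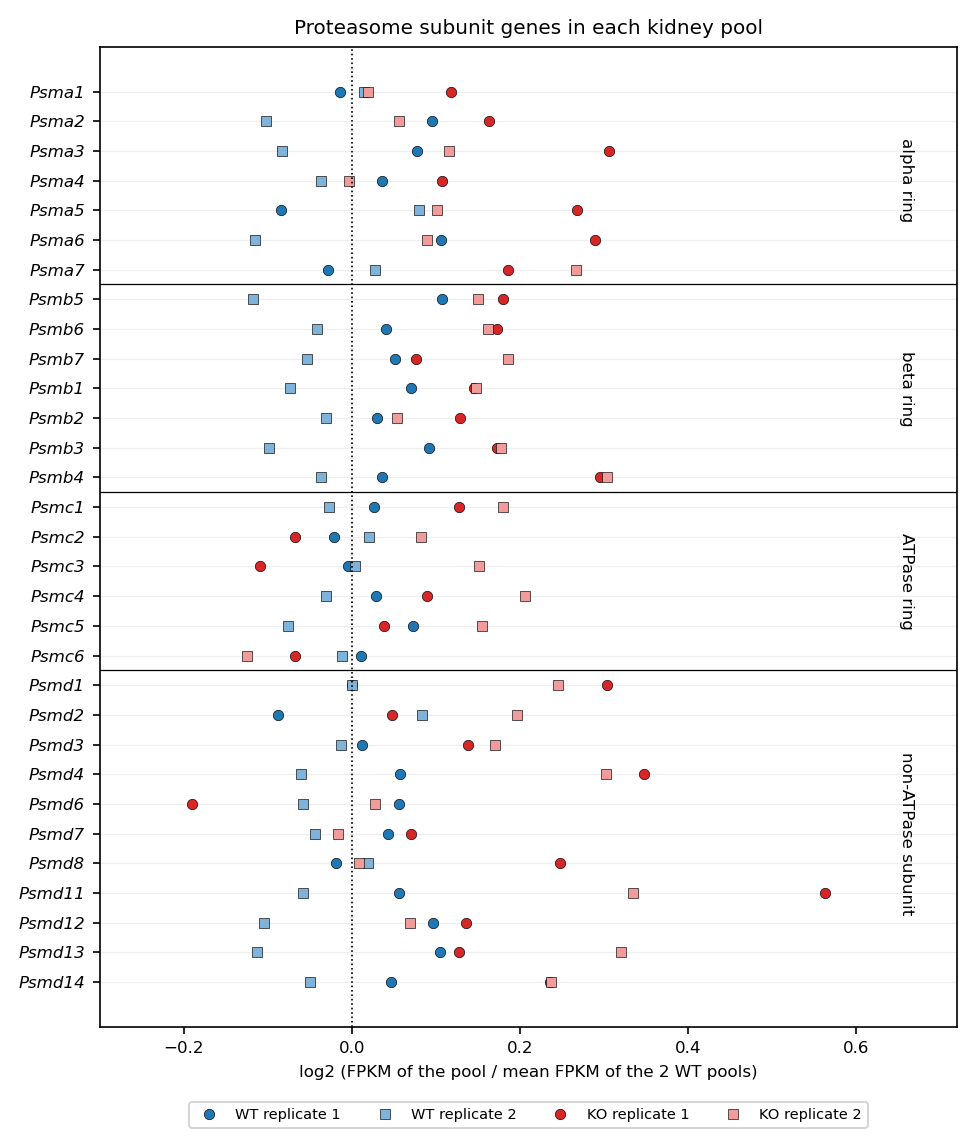
Each row is a gene of the core or regulatory particle, and each point is 1 pool, placed on the x axis at the log2 ratio of its FPKM to the mean FPKM of the 2 WT pools. On this scale the KO points of all 7 beta ring genes lie to the right of both WT points, whereas the ATPase ring holds genes with KO points on both sides.

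In the beta ring the pools of the groups did not overlap in any gene on the deposited scale. All 7 of its genes were higher in both KO pools than in both WT pools, an order that 19.7% of all genes had, by 6.59% to 23.1% in mean FPKM, with adjusted p between 0.786 and 0.893 (limma). Psmb5, the chymotrypsin-like catalytic subunit, was the most abundant core gene per length of gene. It was 141 and 121 FPKM in the WT pools and 149 and 146 FPKM in the KO pools, a log2 fold change of 0.17 ± 0.15 (SE). The lower KO pool thus exceeded the higher WT pool by less than the WT pools differed from each other. Psmb6, the caspase-like subunit, was 54.7 and 51.7 FPKM in WT and 59.9 and 59.5 FPKM in KO (0.17 ± 0.12). Psmb7, the trypsin-like subunit, was 19.5 and 18.1 FPKM in WT and 19.8 and 21.4 FPKM in KO (0.13 ± 0.11). The KO values of both genes were above the WT values, and in Psmb7 the nearest pools of the groups were almost level.

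Psmb4, a structural beta subunit, differed most within the core. Its gene lies on chr3:94884093-94886961 of GRCm38, on the minus strand, and shares no exonic base with another gene. It was 85.6 and 81.3 FPKM in WT and 102 and 103 FPKM in KO, 23.1% higher in the mean, with a log2 fold change of 0.30 ± 0.12 (SE) and an adjusted p of 0.786 (limma). The groups were well separated here, since the gap between them was larger than the gap within either. Of the other structural subunits, Psmb1 was 116 and 105 FPKM in WT and 122 and 122 FPKM in KO. Psmb3 was 35.7 and 31.3 FPKM in WT and 37.8 and 37.9 FPKM in KO. Psmb2 was 44.7 and 42.8 FPKM in WT and 47.8 and 45.4 FPKM in KO. In these 3 genes the KO pools were above the WT pools by a small margin, and WT replicate 2 was the lowest pool in each on the deposited scale.

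The alpha ring was also higher in KO in all 7 genes, but the pools of 3 of them overlapped. The median log2 fold change was 0.18, with a range from 0.05 for Psma4 to 0.22 for Psma7. Psma7 was 35.8 and 37.2 FPKM in WT and 41.5 and 43.9 FPKM in KO (0.22 ± 0.11 SE, adjusted p = 0.797, limma). Psma3, whose product carries part of the gate of the barrel, was 18.4 and 16.5 FPKM in WT and 21.5 and 18.9 FPKM in KO (0.21 ± 0.13). Psma5 was 32.6 and 36.5 FPKM in WT and 41.5 and 37.0 FPKM in KO (0.18 ± 0.13). In these 3 and Psma1 both KO pools exceeded the WT pools, although in Psma5 and Psma1 KO replicate 2 was barely above the higher WT pool. Psma6 was 74.0 and 63.5 FPKM in WT and 84.1 and 73.2 FPKM in KO (0.19 ± 0.15), so that KO replicate 2 was under WT replicate 1. The same overlap was present in Psma2 and Psma4, whose fold changes were 0.11 ± 0.13 and 0.05 ± 0.12. Over the 14 core genes, the median log2 fold change was 0.17. The median absolute difference between the 2 WT pools for these genes was 0.12, and that between the 2 KO pools was 0.09, on the same scale. Each core gene had between 691 and 3343 reads per library.

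In the regulatory particle most genes were also higher in KO, with exceptions. Of its 17 genes, 15 had a fold change above 0 (88.2%, against 51.4% of all genes), 8 had both KO pools over the WT pools (47.1%, against 19.7%) and 1 had both below (5.88%, against 18.1%), with a median log2 fold change of 0.13. The largest differences were in the non-ATPase subunits. Psmd11 (Rpn6), a scaffold that clamps the regulatory particle to the core, was 12.9 and 11.9 FPKM in WT and 18.4 and 15.7 FPKM in KO. This was 36.9% higher in the mean, with a log2 fold change of 0.43 ± 0.13 (SE), an unadjusted p of 0.0235 and an adjusted p of 0.785 (limma). The groups did not overlap, and KO replicate 1 was the highest pool. The gene lies on chr11:80428615-80473248 of GRCm38 on the plus strand, and its annotated principal transcript has 14 exons. Psmd4 (Rpn10), a ubiquitin receptor, was 35 and 32.3 FPKM in WT and 42.8 and 41.5 FPKM in KO. Its log2 fold change was 0.32 ± 0.11 (SE), with an unadjusted p of 0.0412 and an adjusted p of 0.785 (limma). The KO pools were close to each other and above both WT pools. Psmd4 lies on chr3:95032694-95042614 on the minus strand, and neither gene shares exonic bases with another gene.

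Other non-ATPase subunits had the same order of pools with smaller differences. Psmd1 (Rpn2), the large scaffold that binds deubiquitinase and receptor subunits, was 14.6 FPKM in both WT pools and 18.0 and 17.3 FPKM in KO (0.27 ± 0.10 SE). Psmd14 (Rpn11), the metalloprotease that removes ubiquitin chains from substrates, was 17.1 and 16.0 FPKM in WT and 19.5 and 19.5 FPKM in KO (0.23 ± 0.11). Psmd3 was 38.3 and 37.7 FPKM in WT and 41.8 and 42.8 FPKM in KO (0.15 ± 0.11). In these genes the pools of each group were close together and the groups apart. Psmd13 was 28.3 and 24.3 FPKM in WT and 28.7 and 32.9 FPKM in KO (0.22 ± 0.14), with KO replicate 1 and WT replicate 1 almost equal. Psmd2, Psmd7, Psmd8 and Psmd12 had fold changes between 0.03 and 0.13 with overlapping pools. Psmd6 went the other way, with 30.0 and 27.7 FPKM in WT and 25.3 and 29.4 FPKM in KO (−0.08 ± 0.13), and its pools overlapped.

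The ATPase ring, Psmc1 to Psmc6, had the smallest median of the particle, 0.06. Psmc1 was 56.1 and 54.0 FPKM in WT and 60.2 and 62.4 FPKM in KO (0.15 ± 0.12 SE). Psmc4 was 43.9 and 42.2 FPKM in WT and 45.8 and 49.7 FPKM in KO (0.15 ± 0.12). Psmc6 was 22.7 and 22.4 FPKM in WT and 21.5 and 20.7 FPKM in KO (−0.09 ± 0.10). Psmc1 and Psmc4 were thus higher in both KO pools and Psmc6 lower in both, although the 6 proteins form 1 ring in equal numbers. Psmc2 (0.01 ± 0.11), Psmc3 (0.02 ± 0.14) and Psmc5 (0.10 ± 0.13) overlapped. In Psmc3 the KO pools, at 48.7 and 58.4 FPKM, enclosed both WT pools, at 52.4 and 52.7 FPKM. The difference between the core and the regulatory particle, and that between the ATPase and non-ATPase subunits, was not tested.

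**Figure D2:**
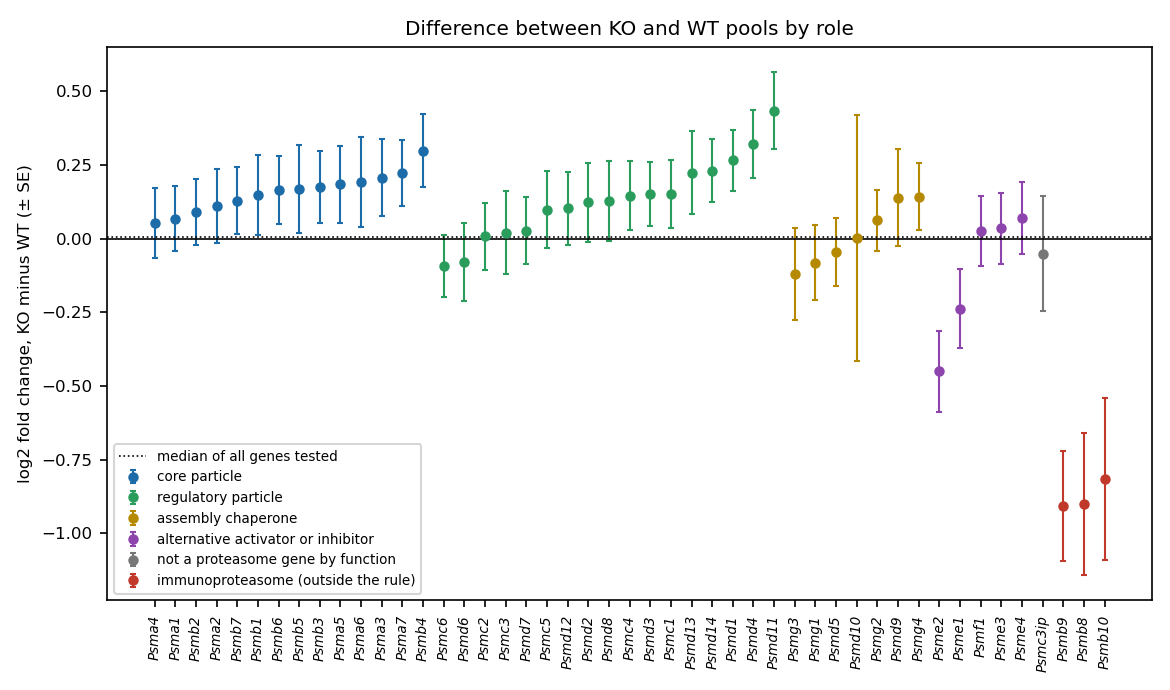
Points are the log2 fold changes of the 44 tested members and of 3 immunoproteasome genes, KO minus WT, with bars of ± 1 standard error from limma, in order of role. The 14 core genes lie between 0.05 and 0.30, and the largest negative values belong to Psme2 and the immunoproteasome genes.

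Summed over the genes, the core particle was 765.9 and 707.8 FPKM in the WT pools and 841.9 and 814.7 FPKM in the KO pools, 12.4% higher in KO. The regulatory particle was 595.8 and 576.5 FPKM in WT and 629.3 and 650.1 FPKM in KO, 9.14% higher. Both KO sums were above both WT sums in each particle. Together the 31 genes took between 0.310% and 0.338% of the reads on genes, with both KO libraries above both WT libraries. On the deposited scale, 11 of the 14 core genes were lower in WT replicate 2 than in WT replicate 1, but with total reads scaling 6 were, and the core's share of the reads on genes was 0.132% and 0.135% in these pools. Endothelial markers were higher in KO as well, whereas the paper reports fewer CD31-stained vessels and lower Tie1 by qPCR in injured KO kidneys. It reports no such decrease for Kdr. Here Tie1 had a log2 fold change of 0.24 ± 0.17 (SE) and Kdr of 0.29 ± 0.19. Pecam1, which encodes CD31, had 0.35 ± 0.21, with overlapping pools. No endothelial marker had an adjusted p under 0.742 (limma). Of 9 listed genes, all 9 had a fold change above 0 and 5 had both KO pools over the WT pools, against 51.4% and 19.7% of all genes, and their sum was 170 and 194 FPKM in WT and 241.5 and 248.5 FPKM in KO, 34.5% higher. Tubular injury markers went both ways. Of 9 listed genes, 5 had a fold change above 0, 4 had both KO pools over the WT pools and 1 had both below. Among all genes tested, 51.4%, 19.7% and 18.1% did. The log2 fold change was 1.21 ± 0.21 (SE) for Lcn2, 0.73 ± 0.11 for Krt20 and −1.91 ± 0.70 for Vcam1. No injury marker had an adjusted p under 0.545 (limma). Whether the macrophage, endothelial or injury markers, or the library total behind the FPKM, had a part in the group difference was not tested. Without WT replicate 2, the median of the core was 0.08 and that of the regulatory particle was 0.12, and all 14 core genes were still higher in KO.

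**Figure D3:**
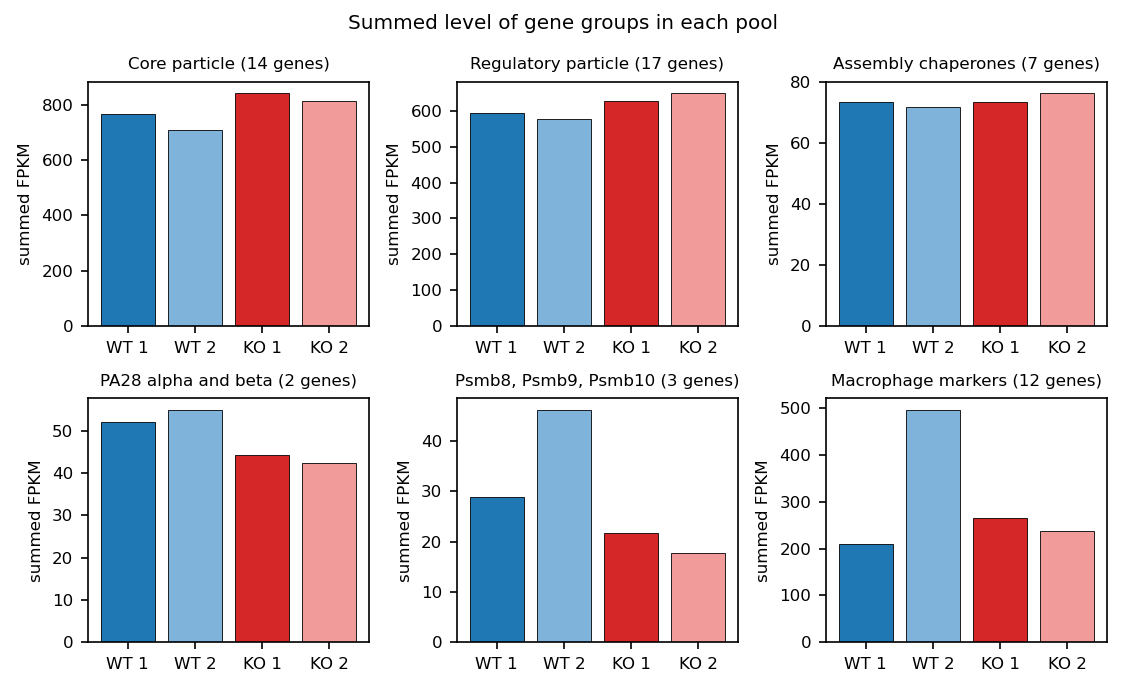
Bars give the summed FPKM of a gene group in each of the 4 pools, on y axes that start at 0. The core and regulatory particle are higher in both KO pools, PA28 and Psmb8 to Psmb10 are lower in both, and the macrophage markers are high in WT replicate 2.

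Genes as abundant as the proteasome genes were as a whole also higher in KO. Among the 1506 genes with a mean between 30 and 150 FPKM, 68.5% had a fold change above 0, 28.4% had both KO pools over the WT pools, and the median log2 fold change was 0.09 (quartiles −0.03 and 0.21). Within this band lay 20 genes of the core and regulatory particle, all 20 above 0. Of them, 13 had both KO pools over the WT pools, and 3 were above the upper quartile of the band. Among the 3285 genes between 10 and 30 FPKM the median was 0.03, with an upper quartile of 0.15, and 23.3% had both KO pools over the WT pools. Of the 11 proteasome genes in this band, 9 were above 0, 6 had both KO pools over the WT pools and 5 were above the upper quartile. The bands were chosen after the values were seen.

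**Figure D4:**
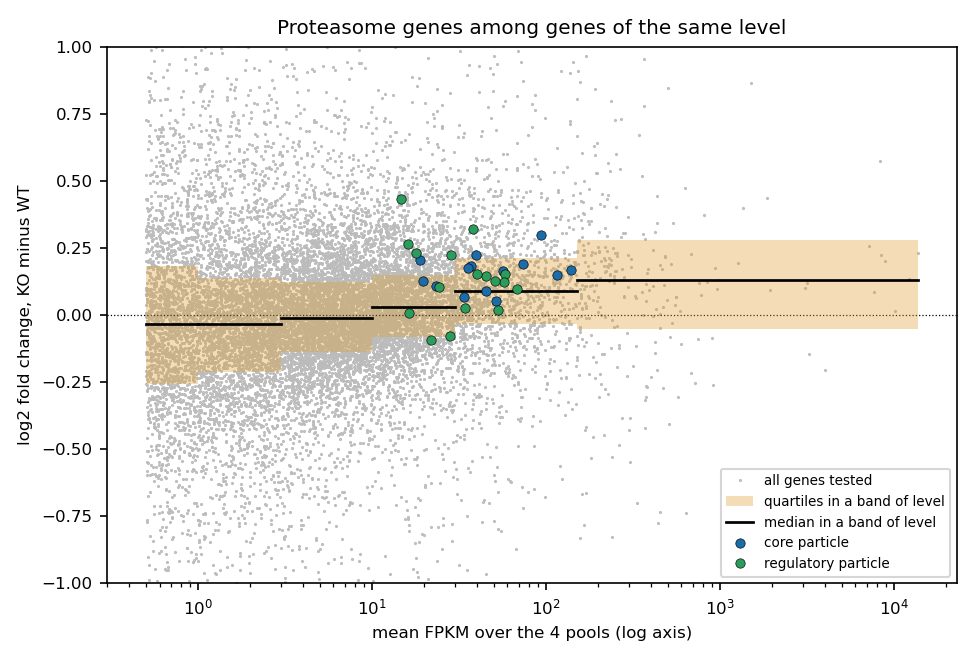
Each point is a gene, with its mean FPKM over the 4 pools on a log x axis and its log2 fold change, KO minus WT, on the y axis, which is limited to −1 to 1. The shaded band of the middle quartiles moves up with level, from a median of −0.03 between 0.5 and 1 FPKM to 0.13 above 150 FPKM, and most core and regulatory particle genes lie in its upper part.

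The size of the difference depended on the scaling of the libraries. With quantile normalization the median log2 fold change was 0.08 for the core and 0.06 for the regulatory particle, and Psma4, Psmc2, Psmc3 and Psmd7 were below 0. With the recovered reads scaled by the reads on genes, it was 0.10 and 0.06, and these 4 and Psma1 were below 0. That scaling moved the median of all genes to −0.06, so that the core stood 0.15 above it, against 0.16 on the deposited scale. The same distance was 0.084 with quantile normalization and 0.074 without WT replicate 2. The members with both KO pools over the WT pools were 15 of 44 with quantile normalization (34.1%, against 18.2% of all genes) and 16 with total reads scaling (36.4%, against 12.9%). In the beta ring these were 5 and 6 of the 7 genes, without Psmb2 in both settings and without Psmb1 in the former. Under each setting and without each pool in turn, 29 of the 44 members kept their sign. Among them, Psmb4, Psmb5, Psmb6, Psmb7, Psmd1, Psmd4, Psmd11 and Psmd14 stayed above 0, and Psme1 and Psme2 below 0.

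**Figure D5:**
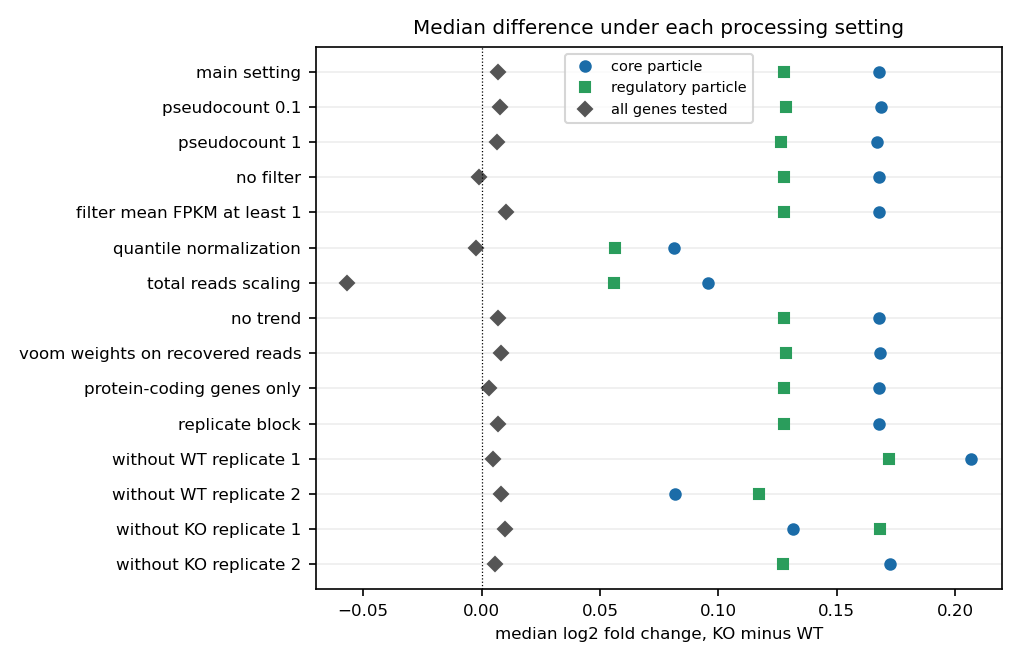
Symbols give the median log2 fold change, KO minus WT, of the 14 core genes, the 17 regulatory particle genes and all genes tested under each processing setting. The core and regulatory medians stay above that of all genes in every row, and they are smallest with quantile normalization, with total reads scaling and, for the core, without WT replicate 2.

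Assembly chaperones were mixed in direction. Of the 7 genes, 4 had a fold change above 0, 2 had both KO pools over the WT pools and 1 had both below, where 51.4%, 19.7% and 18.1% of all genes tested did. Their median log2 fold change was 0.00, their difference from the subunits was not tested, and their summed level was 73.4 and 72 FPKM in WT and 73.6 and 76.4 FPKM in KO. Psmg1 to Psmg4 encode chaperones that build the alpha ring. Psmg4 was 21.5 and 23.6 FPKM in WT and 24.3 and 25.5 FPKM in KO (0.14 ± 0.11 SE), and Psmg2 was 17.3 and 16.8 FPKM in WT and 17.6 and 18.1 FPKM in KO (0.06 ± 0.10). Psmg3 was 1.78 and 2.07 FPKM in WT and 1.71 and 1.75 FPKM in KO (−0.12 ± 0.16). Psmg2 and Psmg4 were above the WT pools in both KO pools and Psmg3 was below, while Psmg1 (−0.08 ± 0.13) overlapped. The chaperones of the ATPase ring, Psmd5 (−0.04 ± 0.12), Psmd9 (0.14 ± 0.16) and Psmd10 (0.00 ± 0.42), overlapped as well. Psmd10, the oncoprotein gankyrin, had 30 and 31 reads in WT and 52 and 16 reads in KO, and its standard error was larger than the size of any fold change among the 14 core genes.

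The PA28 activator subunits alpha and beta went opposite to the subunits of the 26S proteasome. Psme2, PA28 beta, was 17.7 and 16.8 FPKM in WT and 11.3 and 13.7 FPKM in KO, 27.3% lower in the mean. Its log2 fold change was −0.45 ± 0.14 (SE), with an unadjusted p of 0.0244 and an adjusted p of 0.785 (limma). Psme1, PA28 alpha, was 34.5 and 38.2 FPKM in WT and 32.9 and 28.6 FPKM in KO (−0.24 ± 0.13, adjusted p = 0.798, limma). Both KO pools were under both WT pools in each gene, and they neighbour each other on chromosome 14 (chr14:55578123-55581529 on the plus strand and chr14:55587441-55591113 on the minus strand of GRCm38). For both genes together the sum was 52.2 and 55.0 FPKM in WT and 44.3 and 42.4 FPKM in KO, 19.2% lower. WT replicate 2, the pool with the high macrophage markers, was the highest pool for Psme1 but not for Psme2, and in both genes the KO pools were also under WT replicate 1. Psme3, which encodes the nuclear PA28 gamma, was 35.8 and 37.5 FPKM in WT and 39.5 and 35.6 FPKM in KO (0.03 ± 0.12), with overlapping pools. As a share of Psme3 per deposited length, Psme2 was 49.4% and 44.8% in WT and 28.6% and 38.5% in KO. Per length of the principal transcript the share was 81.8% and 74.15% in WT and 47.4% and 63.8% in KO. Psme4 (PA200, 0.07 ± 0.12) and Psmf1 (the inhibitor PI31, 0.03 ± 0.12) also overlapped.

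The 3 immunoproteasome subunits, which the choice of members left out, went in the direction of PA28. Psmb9 was 3.03 and 4.13 FPKM in WT and 1.73 and 1.58 FPKM in KO, with a log2 fold change of −0.91 ± 0.19 (SE) and an adjusted p of 0.661 (limma). Psmb8 was 6.82 and 11 FPKM in WT and 4.61 and 4.21 FPKM in KO (−0.90 ± 0.24). Psmb10 was 19.0 and 31.2 FPKM in WT and 15.4 and 12.1 FPKM in KO (−0.81 ± 0.27). Both KO pools were below both WT pools in each gene, and WT replicate 2, which had the high macrophage markers, was the highest pool in all 3. Without that pool the fold changes were −0.71 for Psmb9, −0.58 for Psmb8 and −0.47 for Psmb10. Relative to the constitutive subunit that each replaces, Psmb8 was 4.83% and 9.07% of Psmb5 in WT and 3.11% and 2.89% in KO. Psmb9 was 5.53% and 7.99% of Psmb6 in WT and 2.89% and 2.66% in KO. In every pool these 2 catalytic sites were encoded mostly by constitutive transcripts. Psmb10 was 97.7% and 172% of Psmb7 in WT and 77.8% and 56.4% in KO, on the deposited gene lengths. Per length of the principal transcript the ratio was 43.1% and 75.8% in WT and 34.3% and 24.9% in KO, so whether Psmb10 reached the level of Psmb7 in WT replicate 2 depends on the length used, while the order of the pools does not. The summed FPKM of 8 T cell markers was 1.81 and 3.71 in WT and 1.92 and 1.54 in KO, and WT replicate 2 was the highest pool in 7 of the 8. Their part in the difference was not tested. Of the T cell markers, 2 passed the filter on low values, Lck at 0.469 to 0.873 FPKM and Trac at 0.266 to 1.06 FPKM, while Cd3e was at 0 in 3 pools and at 0.0427 FPKM in WT replicate 2.

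Levels of subunits that occur in equal numbers in the particle differed several-fold in the deposited FPKM, and by less when another gene length was used. For the 13 core genes whose deposited length equals all annotated exons joined, within 1 base, the mean FPKM ran from 18.8 for Psma3 to 139 for Psmb5, a ratio of 7.39 and a coefficient of variation of 66.0%. When the reads were divided by the length of the principal protein-coding transcript instead, the range ran from 25.7 for Psma3 to 154 for Psmb4, a ratio of 5.96 and a coefficient of variation of 49.0%. Psmb6 moved from 56.5 to 132, close to Psmb5 at 139 on both scales. For the 17 regulatory particle genes the ratio of the highest to the lowest changed from 4.6 (Psmc5 over Psmd11) to 2.82 (Psmd3 over Psmd14). Levels between subunits thus depend on the choice of length, while the fold changes between pools do not. Of the 47 members, 13 share exonic bases with another gene, for example Psmb7 with Nek6 on the opposite strand (405 bases) and Psmb5 with Mir686 on its own strand (109 bases). The libraries are not described as strand-specific, so reads in such stretches could come from either gene.

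Genes that work with the proteasome had smaller median differences than the core or the regulatory particle as a whole, but not than the ATPase ring (0.06). These contrasts were not tested, and the lists were not matched for level. The partner list includes Adrm1, itself a ubiquitin receptor of the regulatory particle. Of 15 listed partners, which regulate proteasome genes, bind the particle or help to build it, 14 were tested. Of these, 11 had a fold change above 0, 7 had both KO pools over the WT pools and 1 had both below. Among all genes, 51.4%, 19.7% and 18.1% did, and the median of the partners was 0.07. Of 14 listed genes of ubiquitin and of the delivery of ubiquitinated proteins, 12 were above 0, against 51.4% of all genes. In 3 of them both KO pools lay over the WT pools, a share near that of all genes, and the median was 0.07. None of these 28 genes had an unadjusted p under 0.05 (limma), against 6.32% of all genes tested. Their adjusted p lay between 0.785 and 0.999. Nfe2l1 (NRF1), the transcription factor that drives proteasome genes when the proteasome is inhibited, was 46.8 and 48.0 FPKM in WT and 50.6 and 44.8 FPKM in KO (0.01 ± 0.12 SE), with overlapping pools. Ngly1, an enzyme that processes NRF1 protein by removing its sugars, was 6.78 and 5.50 FPKM in WT and 7.94 and 8.09 FPKM in KO (0.37 ± 0.14). Ddi2, the protease that cleaves NRF1, was 12.7 and 12.4 FPKM in WT and 11.7 and 10.2 FPKM in KO (−0.19 ± 0.12). The transcripts of these 2 NRF1-processing enzymes thus lay on opposite sides, and neither gene passed the test. Adrm1 (Rpn13), a ubiquitin receptor of the regulatory particle, was 23.5 and 22.3 FPKM in WT and 27.1 and 26.8 FPKM in KO (0.23 ± 0.11). Uchl5, the deubiquitinase that binds it, was 7.86 and 6.87 FPKM in WT and 8.45 and 8.54 FPKM in KO (0.20 ± 0.12). Ufd1, which with Vcp extracts ubiquitinated proteins, was 10.4 and 9.06 FPKM in WT and 10.9 and 12.2 FPKM in KO (0.24 ± 0.13). Rad23b, a shuttle that carries ubiquitinated proteins to the proteasome, was 21.3 and 21.4 FPKM in WT and 22.0 and 22.7 FPKM in KO (0.06 ± 0.10). In Adrm1, Uchl5, Ufd1 and Rad23b the KO pools lay above the WT pools, and Rad23b was below 0 with total reads scaling.

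NRF1 binds DNA at antioxidant response elements, so the core letters of this element, TGACNNNGC, were searched on both strands in the RefSeq promoters of GRCm38.p6, from 250 bases before to 50 after the start of each gene. A window was given for 39 of the 47 members. The letters were in 6 of them (15.4%), in 17.0% of the windows of the genes tested and in 14% of all 27025 windows. The members with a match near the start are shown because they include 2 catalytic subunits. Each window of 30 bases reads 5′ to 3′ on the strand of the gene, with the matched letters in capitals, which are on the opposite strand in Psme4.
Psmb5: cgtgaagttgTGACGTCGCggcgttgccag
Psmb6: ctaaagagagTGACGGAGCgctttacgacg
Psmd9: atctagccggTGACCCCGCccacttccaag
Psme4: cgctgcggctGCAGCGTCAccagaagagcc
They lie at chr14:54618023-54618052 (Psmb5, minus strand), chr11:70525338-70525367 (Psmb6, plus), chr5:123228149-123228178 (Psmd9, plus) and chr11:30771758-30771787 (Psme4, plus), with the match beginning 47, 9, 31 and 7 bases before the start. The log2 fold changes of these genes were 0.17, 0.17, 0.14 and 0.07. The other 2 matches were in Psmc6 and Psmd12, 227 and 247 bases before the start. A match of letters is no evidence that a factor binds there, and no binding was measured. CCAAT was in 14 of the 39 windows (35.9%), against 42.1% of those of the genes tested. The core letters of the interferon-stimulated response element, GAAA, any 2 bases and GAAA, were searched after the values were seen. They were in 5 of the 39 windows (12.8%), against 3.70% of those of the genes tested. Of these 5 genes, Psme1 had a lower level in KO, and Psmb3, Psmd4, Psmd9 and Psmg4 had a log2 fold change between 0.14 and 0.32. The Psme1 window, shown because its level was lower in KO, lies at chr14:55578493-55578522 on the plus strand, with the match on the opposite strand.
Psme1: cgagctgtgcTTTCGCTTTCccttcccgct
The window of Psme2 did not hold these letters, nor did those of Psmb8, Psmb9 and Psmb10.

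Of the remaining members, 3 had very few reads. Psma8 had 6 and 4 reads in the WT libraries and 1 and 4 reads in the KO libraries. Psmb11 had 1 read in KO replicate 2 and none elsewhere. Psme2b, an intronless copy of Psme2, had no reads in any library, and how reads that match both copies were assigned is not given in the sources used here. These 3 genes were not tested. Psmc3ip, which is no subunit and was tested, was 2.43 and 2.91 FPKM in WT and 2.99 and 2.17 FPKM in KO (−0.05 ± 0.19 SE).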

How the data were processed

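Poly(A)-selected kidney RNA of 4 pools (2 WT, 2 Apela Ksp KO) was sequenced by the authors' provider, and the authors deposited the FPKM of every gene and library in 1 table. The submitters' processing notes name HISAT2 2.0.5, mm10 and GRCm38.p6. The counting tool is not given in the sources used here. Positions were identical to those of GENCODE M21 for 97.1% of 53620 shared genes. Multiplied by gene length, 100% of nonzero FPKM were whole numbers of reads (within 0.01 read), and these recovered reads gave the depth and voom weights. log2(FPKM + 0.5) was fitted for 15414 genes (mean FPKM 0.5 or more) with limma 3.58.1 in R 4.3.3 (trend, two-sided, Benjamini-Hochberg over all genes). Medians, sums and counts over gene groups carry no test and were set beside those of all genes tested. Other settings were a pseudocount of 0.1 or 1, a filter of 1 FPKM or none, quantile normalization, total reads scaling, voom weights, no trend, only protein-coding genes, the replicate number as a block, and each pool left out, for which the lone pool was assumed to vary like the other group. All members were described, with at most 4 genes per partner list that had no overlap of pools and the largest fold change, plus Nfe2l1. A listed gene is not reported here. The members and lists were chosen with earlier results of these data known. In a test on simulated reads for KO against WT over 15414 genes, 14 of 100 genes changed 2-fold and 88 of 100 changed 4-fold were called, and 7 of 15214 unchanged genes. There, genes of like level shared a common spread, and the changed genes averaged at least 100 reads. Genes with 3 reads or fewer in a library were taken as at the limit of detection, which covers counting error only. Other work used Python 3.11.15 with numpy 2.4.6 and pandas 2.3.3.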

Additional observations from a re-analysis of the deposited data

How the results depend on the processing

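The differences of the members were far under 2-fold, a size of which 14 of 100 were called in the simulated reads. Those reads gave genes of like level a common spread, so they may overstate what the test finds here. In the data even Apela, with a log2 fold change of −2.62, had an adjusted p of 0.466 (limma). No member or other gene had an adjusted p under 0.05 in limma under any setting. The paper, in contrast, reports differentially expressed genes at that threshold, and its methods do not name the test. Between 822 and 1538 genes had an unadjusted p under 0.05 in the settings that kept all pools, and 974 as reported. With a pool left out there were between 687 and 1720. Of the 44 members, 3 had such a p as reported, 5 with no filter, and between 0 and 2 with a pool left out. The count was 0 without WT replicate 2 and without KO replicate 1. With quantile normalization the median log2 fold change of the core, the regulatory particle and all members was 0.081, 0.057 and 0.039, and the summed FPKM was 4.85% and 3.42% higher in KO for the 2 particles. With total reads scaling the medians were 0.096, 0.056 and 0.045 and the sums 7.01% and 3.76% higher. With each pool left out the core median ran from 0.082 to 0.207 and that of the regulatory particle from 0.117 to 0.172, and the median of all members from 0.064 (without WT replicate 2) to 0.141. The number of members with both KO pools over the WT pools was 21 as reported, 15 with quantile normalization and 16 with total reads scaling. With a pool left out, which makes this order easier to meet, it ran from 23 (without WT replicate 2) to 32 (without KO replicate 2), where 34.3% and 35.1% of all genes met it. Of the 44 members, 29 kept their sign under every setting, 10 changed it under a setting that kept all pools and 13 with a pool left out. The first were, with quantile normalization, Psma4 (−0.047), Psmc2 (−0.022), Psmc3 (−0.076), Psmd7 (−0.039) and Psme3 (−0.045), and, with total reads scaling, Psma1 (−0.0037), Psma4 (−0.020), Psmc2 (−0.063), Psmc3 (−0.051), Psmd10 (−0.048), Psmd7 (−0.044), Psme3 (−0.037), Psme4 (−0.0010), Psmf1 (−0.040) and Psmg2 (−0.0072). Psmd10 was also −0.045 with a pseudocount of 0.1 and −0.053 with voom weights. The ranges with a pool left out for those that changed sign were −0.0024 to 0.106 for Psma4, −0.065 to 0.080 for Psmc2, −0.108 to 0.150 for Psmc3, −0.244 to 0.144 for Psmc3ip, −0.579 to 0.581 for Psmd10, −0.099 to 0.011 for Psmd5, −0.185 to 0.028 for Psmd6, −0.015 to 0.070 for Psmd7, −0.030 to 0.309 for Psmd9, −0.040 to 0.110 for Psme3, −0.022 to 0.162 for Psme4, −0.039 to 0.092 for Psmf1 and −0.179 to 0.014 for Psmg1. The cause was not tested. The replicate number as a block changed no median and gave 932 genes and 2 members (Psmd11 and Psme2) at an unadjusted p under 0.05. Same-numbered pools did not deviate together over the genes (correlation −0.00167). With 2 pools in each group, this value cannot tell whether the numbers pair the pools.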
